A study of Danio rerio with 2 samples.

Results

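Accessible regions in 7 blocks of the zebrafish genome, in which such regions lie crowded together, were compared between 2 melanoma cell lines, zcrest 1 and zcrest 2. In build Zv9 the blocks, of 500 kb each, start at 18500001 on chromosome 2, 64000001 on chromosome 7, 36000001 on chromosome 8, 16500001 on chromosome 10, 15250001 on chromosome 12, 20000001 on chromosome 16 and 12000001 on chromosome 24. A region was a member when its summit, the position of most reads, lay inside a block. Of 63335 regions in zcrest 1, 203 were members, and of 53132 in zcrest 2, 258 were. Each block was set against the 2 Mb on either side of it, its flanks, which held 1209 and 1218 regions.

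The assay was ATAC-seq, which uses a transposase to place sequencing adapters into open DNA, and each line gave 1 library made from 50000 cells. Both lines have the same listed genotype, p53, BRAF and Na with the reporter crestin:EGFP, which marks neural crest cells, and the vector MiniCoopR alone, and both were grown for more than 20 passages. MiniCoopR is a transgene vector that carries mitfa, a regulator of pigment cells. Na is not expanded in the labels. With 1 library per line there was no replicate, so no test was made and every value describes these 2 libraries. No annotation of Zv9 was used here, so neither genes nor repeats are named and the cell type could not be checked on marker genes.

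An open region usually marks a promoter, an enhancer or another site where regulatory proteins keep nucleosomes away, and such sites are normally separated by stretches of closed chromatin. Read density along a genome also follows the number of copies of a sequence in the cells relative to the reference assembly. Families of near-identical sequences can draw the reads of many copies to the few copies that the reference holds. Peak callers compare each site with the read level around it, so a site on a high local level needs many reads to be called.

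The blocks were chosen from these 2 lists for their crowding and their raised local read level, so the density, the spacing and the level are given as a description only. Members lay at 58.0 regions per Mb in zcrest 1 and 73.7 in zcrest 2, against 43.2 and 43.5 in the flanks, which is 1.34 and 1.69 times as dense. The block on chromosome 7 was not crowded over its full length: it held 12 regions in zcrest 1, 0.676 times the density of its flanks, and 25 in zcrest 2, 1.03 times. The chromosome 24 block of zcrest 1 was also near its flanks, at 1.01 times with 27 regions. The highest ratio to the flanks was on chromosome 16 in zcrest 2, at 3.32 times with 34 regions. It went with sparse flanks, which held 82 regions in zcrest 2 and 177 in zcrest 1. The block itself held about as many regions in zcrest 1, 36, and was not the densest of zcrest 2. The block on chromosome 10 held 50 in that line.

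Most members lay on a raised local read level. The local background, which the peak caller takes from the reads in the 10 kb around a summit, was at least 3 times the line's median at 140 of the 203 members of zcrest 1 (69.0%) and at 174 of the 258 of zcrest 2 (67.4%). Over the whole lists 4.15% and 3.3% of regions lay that high, and in the flanks 9.59% and 13.3%. This background counts a region's own reads and those of its neighbours. Of all regions raised in this way the members were 5.33% (zcrest 1) and 9.93% (zcrest 2). The other 63 and 84 members had a median background of 1.04 and 0.976 times the line's median, which is that of an ordinary region. The median member stood on 675 reads per 10 kb in zcrest 1 and on 945.5 in zcrest 2, where the median flank region had 114 and 166.5.

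Joined over gaps of up to 12500 bp, the raised members of both lines formed 13 stretches with a total length of 461 kb, 13.2% of the 7 blocks. They held 144 members of zcrest 1 and 174 of zcrest 2, or 70.9% and 67.4%. Inside the stretches the regions lay at 312 and 377 per Mb, and in the rest of the blocks at 19.4 and 27.6 per Mb. This contrast follows in part from how the stretches, called cores here, were made, since they join neighbouring raised regions and begin and end at called regions. Of the 13 stretches, 9 held at least 5 regions of each line, and the other 4 were short or were raised in zcrest 2 alone.

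**Figure D1:**
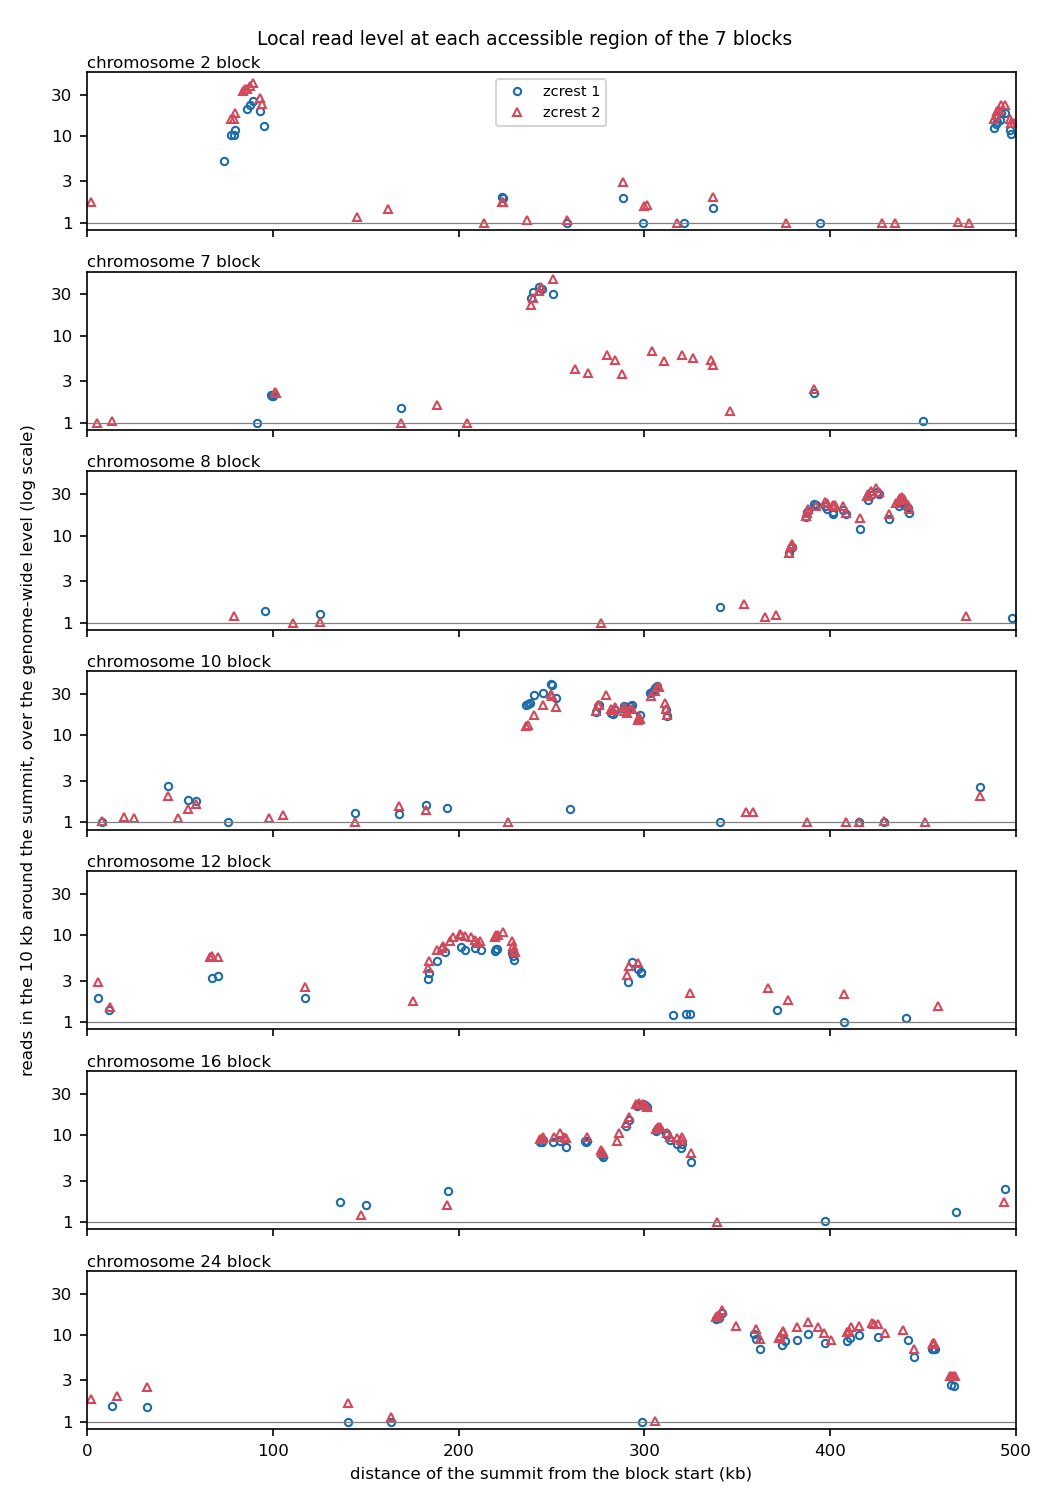
Reads in the 10 kb around each summit, divided by the genome-wide level of the line (log scale), against the distance of the summit from the block start in kb. Each circle is a region of zcrest 1 and each triangle a region of zcrest 2. Regions outside the cores lie between 1 and 4.21. As multiples of the line median, the median background of the 9 larger stretches is 4.59 to 22.5 times the line median in zcrest 1 and 6.0 to 22.9 times in zcrest 2.

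How sharply a core ended could be seen only where another region lay near. On chromosome 8 the last region of zcrest 2 before the core, at 6.80 kb, had 0.848 times the median background. On chromosome 10 the first region of zcrest 1 after the first core, at 7.29 kb, was at the median. Other neighbours were still above it. On chromosome 12 those 0.635 and 0.828 kb before the core had 2.19 and 2.92 times the median in zcrest 1 and zcrest 2. On chromosome 24 those 7.98 and 7.61 kb after it had 1.85 and 2.34 times, and on chromosome 7 the next region of zcrest 2, at 11.2 kb, had 2.85 times. Around the first core of chromosome 2 the nearest regions of zcrest 1 were 144 and 128 kb away and place no edge. Since the level is taken over 10 kb, an edge cannot be placed more closely than that.

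The block limits cut through a core at 1 place. At the end of the chromosome 2 block the last members, 2.77 kb inside in zcrest 1 and 1.17 kb inside in zcrest 2, had 7.32 and 9.85 times the median background. The first regions outside, 2.87 kb and 1.23 kb past the limit, had 3.41 and 7.96 times. The core went on past the block, with 8 raised regions in zcrest 1 and 11 in zcrest 2 within the next 100 kb, the last of them ending at 19029198 and 19029192. At the other 13 block ends the nearest members had a background of 0.697 to 3.57 times the median. Before the blocks on chromosomes 7 and 8 the nearest outside regions were raised, at 4.98 and 11.5 times in zcrest 1 and 8.22 and 10.6 times in zcrest 2. They lay 36849 to 49774 bp before the limit. The first members, 5478 to 95761 bp inside it, were at the median or below, so the level at the limit itself is not shown. Raised regions also occurred in the flanks: 94 of 233 in the chromosome 8 flanks of zcrest 2 and 38 of 137 in the chromosome 2 flanks of zcrest 1 were raised, while the chromosome 16 flanks had 0 of 177 and 0 of 82.

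Part of a high local level comes from the called regions themselves. To bound that part, every region in the 10 kb was given its summit height over its whole width, which overstates its reads. The rest is then a lower bound for the reads between regions. At the raised members its median was 452 reads in zcrest 1 and 600.0 in zcrest 2, against 51.8 and 89.7 in the flanks and a genome-wide level of 78.6 and 101 reads per 10 kb for all reads. So the read level was raised between the called regions too in most cores. This was not particular to the blocks: at raised regions of the flanks the median bound was 215 and 491 reads. By the median over its regions the bound was above 0 in 7 of the 9 larger stretches in zcrest 1 and in 9 of 9 in zcrest 2. It ran up to 740 reads in zcrest 1, on chromosome 10 in the second core, and up to 936 in zcrest 2, on chromosome 8. In zcrest 1 it was -146 in the first core of chromosome 10 and -5.73 in the second of chromosome 2, where the called regions can account for all reads.

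Neighbouring summits of raised members were at a median distance of 1670 bp in zcrest 1 (95% binomial interval of the median 1280 to 2302, 133 distances) and 1787 bp in zcrest 2 (1419 to 2330, 167 distances). In the flanks the medians were 13051 and 12059 bp. Over all members they were 3468.5 and 3749 bp, and between the members that were not raised 28032.5 and 20993 bp. Distances within a group were taken with all other regions left out, so those between members not raised can span a core. The raised regions of the flanks also lay close, at 3951 and 3200 bp. Distances under 1 kb made up 31.6% of those between raised members in zcrest 1 and 26.9% in zcrest 2, where the whole lists had 7.06% and 7.39%. Distances under 2 kb made up 57.1% and 53.3%, against 11.3% and 11.4%. Among raised flank regions 22.4% and 27.0% of the distances were under 1 kb, and 36.4% and 44.1% were under 2 kb. The smallest distance was 350 bp in zcrest 1 and 376 bp in zcrest 2. The intervals treat distances as independent and cover counting error only.

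**Figure D2:**
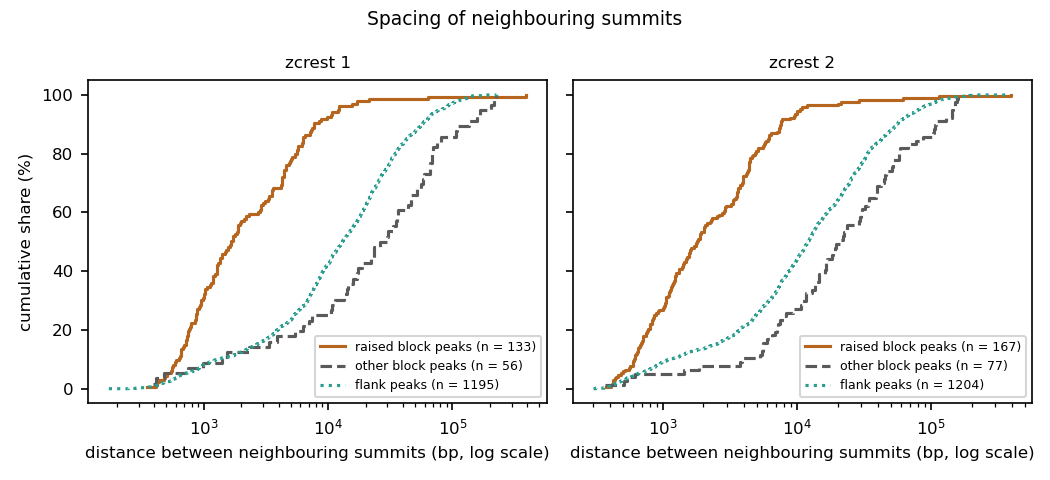
Cumulative share in percent of the distances between neighbouring summits (bp, log scale) for raised members, other members and flank regions, zcrest 1 on the left and zcrest 2 on the right. The curves of the raised members lie to the left, with medians of 1670 and 1787 bp, and those of the other members lie to the right of the flanks. Distances of the other members were taken with the raised members left out and can span a core.

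The spacing differed from core to core. The closest packing was in the second core of chromosome 2, with medians of 984 bp in zcrest 1 and 1060 bp in zcrest 2, and in the second core of chromosome 10, with 1080.5 and 1235 bp. Chromosomes 8 and 16 followed with 1392 and 1552 bp, and 1481 and 1894 bp. The widest was on chromosome 24, with 4396 and 3406 bp. Distances that recurred were also sought among the summits of a core, in a window of 50 bp and between 2 and 100 kb. The most frequent distance was found 4 times at most, out of up to 414 pairs. It was 9154.5 bp in zcrest 1 and 9159 bp in zcrest 2 in the second core of chromosome 10, with 4 pairs in each. The lines are not separate evidence for it, since 17 matched regions there had summits a median of 19 bp apart. In zcrest 1 the most frequent distance was 9072.5 bp on chromosome 16 and 9346.5 bp on chromosome 8, with 4 pairs in each. On chromosome 12 it was 9125 bp in zcrest 1, with 2 pairs. In zcrest 2 these cores had other most frequent distances, 5779.5, 13769 and 18844 bp. On chromosome 24 it was 6123.5 bp in zcrest 1, with 2 pairs, and 10374 bp in zcrest 2, with 3. In the first core of chromosome 2 it was 4346.5 bp in zcrest 2, with 2 pairs. How often chance would give such counts was not computed, and whether the cores are repeated sequence was not tested, because no Zv9 sequence was used here.

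Crowding did not come with wide regions. The median width of members was 361 bp in zcrest 1 (interval 310 to 392) and 340 bp in zcrest 2 (321 to 367), against 389 bp (374 to 407) and 372.5 bp (354 to 388) in the flanks. Raised members were 367.5 and 344.5 bp wide at the median and the other members 347 and 324 bp. The narrowest width a region can have, 200 bp, was found in 3 of 140 raised members of zcrest 1 and 3 of 174 of zcrest 2 (2.14% and 1.72%), against 6.3% and 6.65% of the whole lists. It was found in 9 of the 63 and 12 of the 84 other members, 14.3% in each, and in 1.72% and 1.85% of raised flank regions. A width of at least 1 kb was reached by 7 raised members in zcrest 1 (5.0%) and by 10 in zcrest 2 (5.75%). The whole lists had 1.98% and 2.64%, and raised flank regions had more, 9.48% and 8.64%. These are small counts and no test was made.

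By block the median width ran from 272 bp on chromosome 24 to 612.5 bp on chromosome 7 in zcrest 1, and from 268 bp on chromosome 24 to 418 bp on chromosome 8 in zcrest 2. Members were narrower than the flanks in both lines on chromosomes 10, 16 and 24. On chromosome 24 the medians were 272 and 268 bp against 378.5 and 386.5 bp, on chromosome 16 they were 292.5 and 325.5 bp against 391 and 365.5 bp, and on chromosome 10 they were 394 and 327 bp against 442 and 390 bp. Members were wider in both on chromosome 7, at 612.5 and 382 bp against 382.5 and 359 bp. On chromosomes 2, 8 and 12 the lines went opposite ways. The smallest gap between the edges of neighbouring members was 101 bp in zcrest 1 and 107 bp in zcrest 2, near the 101 and 98 bp of the flanks.

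Raised members had many reads and little enrichment. Their median summit had 77 overlapping reads in zcrest 1 and 79.5 in zcrest 2, against 19 and 21 in the flanks. Their median deposited fold enrichment, the authors' ratio of the summit to its background, was 3.2 and 2.74, against 5.44 and 4.54. The other members had 18 and 17 reads and 5.30-fold and 4.31-fold, close to the flanks. Raised regions of the flanks also had many reads and low enrichment, at medians of 51 and 51.5 reads and 3.58-fold and 2.61-fold. Low enrichment at high read number follows from the raised background by the way the ratio is made. The high read number follows in part from the choice too, since a site on a raised level needs many reads to be called. No raised member had fewer than 23 reads in zcrest 1 or 25 in zcrest 2. The median -log10 q was higher in the raised members, 14.4 and 12, than in the flanks, 8.57 and 7.04. In the raised flank regions it was 12.3 and 7.33. The tallest member, on chromosome 7 in zcrest 2, had 318 reads. At a read length of 200 bp, 1 read per position and strand would allow 400. The tallest regions of the whole lists, on the mitochondrial genome, had 391 and 384 reads. Whether such a limit was applied and lowered the tall summits was not tested.

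**Figure D3:**
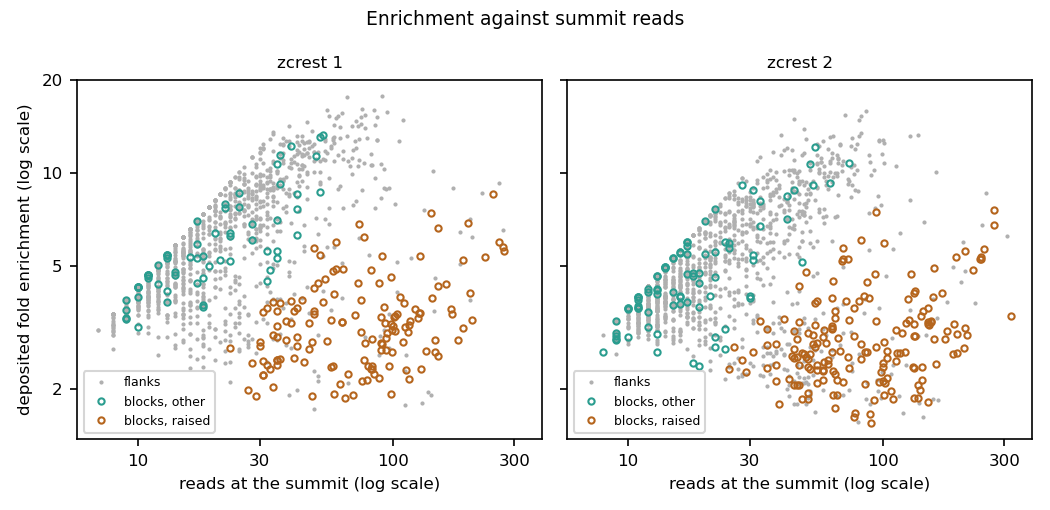
Deposited fold enrichment against reads at the summit, both on log scales, for flank regions (grey), raised members (brown circles) and other members (green circles), zcrest 1 on the left and zcrest 2 on the right. The raised members form a band below and to the right of most flank regions. Their medians are 77 reads and 3.2-fold in zcrest 1 and 79.5 reads and 2.74-fold in zcrest 2.

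The lines mostly had the same regions in the cores. In zcrest 1, 163 of 203 members (80.3%, with an exact 95% interval of 74.1% to 85.5%) shared at least 1 bp with a called region of the other line. In zcrest 2, 161 of 258 did (62.4%, 56.2% to 68.3%). Over the whole lists 54.7% and 64.9% did, and in the flanks 58.0% and 57.0%. The share was above the list in zcrest 1 and close to it in zcrest 2. The shared counts were near equal in the lines, also over the lists, with 34658 and 34492. The shares of the lines thus differ through the totals, 203 and 258 members against 63332 and 53129 regions on the numbered chromosomes. Summits within 50 bp of a summit of the other line were found for 55.2% of the members of zcrest 1 (33.4% of the list) and 43.4% of those of zcrest 2 (39.8% of the list). Of the raised members, 127 of 140 (90.7%, 84.6% to 95.0%) and 129 of 174 (74.1%, 67.0% to 80.5%) had a counterpart, against 36 of 63 (57.1%, 44.0% to 69.5%) and 32 of 84 (38.1%, 27.7% to 49.3%) of the other members. Raised regions of the flanks had a counterpart in 74.1% and 52.5% of cases. Dense regions can overlap by position alone: in the stretches the called regions of zcrest 1 covered 13.8% of the bases and those of zcrest 2 16.9%, while in the flanks they covered 1.92% and 1.95%. Since 1 bp is enough for an overlap, the share by position alone is above this coverage. It was not computed.

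Shared regions are usually the strong ones, so the share was also taken at like -log10 q. In zcrest 1 the raised members had the higher share in each class: 14 of 19 below 5 (73.7%, 48.8% to 90.9%) against 33.1% in the flanks, 28 of 32 from 5 to 10 (87.5%, 71.0% to 96.5%) against 49.6%, 33 of 36 from 10 to 20 (91.7%, 77.5% to 98.2%) against 71.1%, and 52 of 53 above (98.1%, 89.9% to 99.95%) against 87.1%. In zcrest 2 they were close to the flanks: 8 of 24 (33.3%, 15.6% to 55.3%) against 28.7%, 29 of 53 (54.7%, 40.4% to 68.4%) against 49.1%, 37 of 41 (90.2%, 76.9% to 97.3%) against 80.1%, and 55 of 56 (98.2%, 90.4% to 99.95%) against 94.3%. Against the whole list of zcrest 2, which had 35.0%, 60.6%, 83.3% and 95.5% in the 4 classes, they were lower in the lowest pair of classes and higher in the others. At the same -log10 q a raised member had more reads, a median of 33 against 11 in the flanks in the lowest class of zcrest 1, and the part of this in the share was not tested. In total 127 of 140 and 129 of 174 raised members were shared, so the difference between the lines also goes with their number.

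Block by block the overlap ran from 58.3% on chromosome 7 to 88.0% on chromosome 2 in zcrest 1, and from 28.0% on chromosome 7 to 82.4% on chromosome 16 in zcrest 2. The contrast with the flanks was widest on chromosome 16 in zcrest 1. There 30 of 36 members of zcrest 1 had a counterpart (83.3%, 67.2% to 93.6%), while 63 of 177 flank regions did (35.6%, 28.6% to 43.1%). These flanks held only 82 regions in zcrest 2, which limits the flank share of zcrest 1. In zcrest 2 the shares on that chromosome were near each other, 28 of 34 (82.4%, 65.5% to 93.2%) and 65 of 82 (79.3%, 68.9% to 87.4%).

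Matched summits lay close together. The 160 one-to-one matches in the blocks had their summits at a median distance of 18 bp (13 to 25), against 29 bp (26 to 35) among 683 pairs of the flanks and 32 bp over all 33889 pairs. In 88 of the 124 pairs raised in both lines the summits lay within 50 bp (71.0%), where 61.7% of all pairs did. The edges lay close as well, a median of 19 bp apart at the start and 22 bp at the end in the raised pairs, against 52 and 54 bp in the flanks. The raised pairs were taller, and the edges were not compared at like height. Taller regions have better placed summits, and at like height the summits of raised pairs were not closer in every class. With 20 to 50 reads at the summit the medians were 25.5 bp in the raised pairs and 27 bp in the flanks, with 50 to 100 reads 18 and 22 bp, and with 100 or more 18 and 7 bp, over 53 and 24 pairs.

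Neighbours in a core were often neighbours in both lines. Of 102 neighbours in zcrest 1 that were both raised and matched, 83 were neighbours in zcrest 2 too (81.4%), against 283 of 416 in the flanks (68.0%). Their distance was 1281 bp at the median in zcrest 1 and 1304 bp in zcrest 2, and the same distance differed between the lines by a median of 41 bp. It differed by 50 bp or less in 50 of the 83 (60.2%), against 119 of 283 in the flanks (42.0%). Relative to the distance itself the difference was larger in the cores, 2.62% at the median against 0.834% in the flanks, where neighbours lie farther apart. The distance differed by 50 bp or less in 14 of 19 on chromosome 16, in 11 of 16 on chromosome 10 and in 2 of 7 on chromosome 24. Raised pairs were taller than flank pairs, and these shares were not taken at like height.

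**Figure D4:**
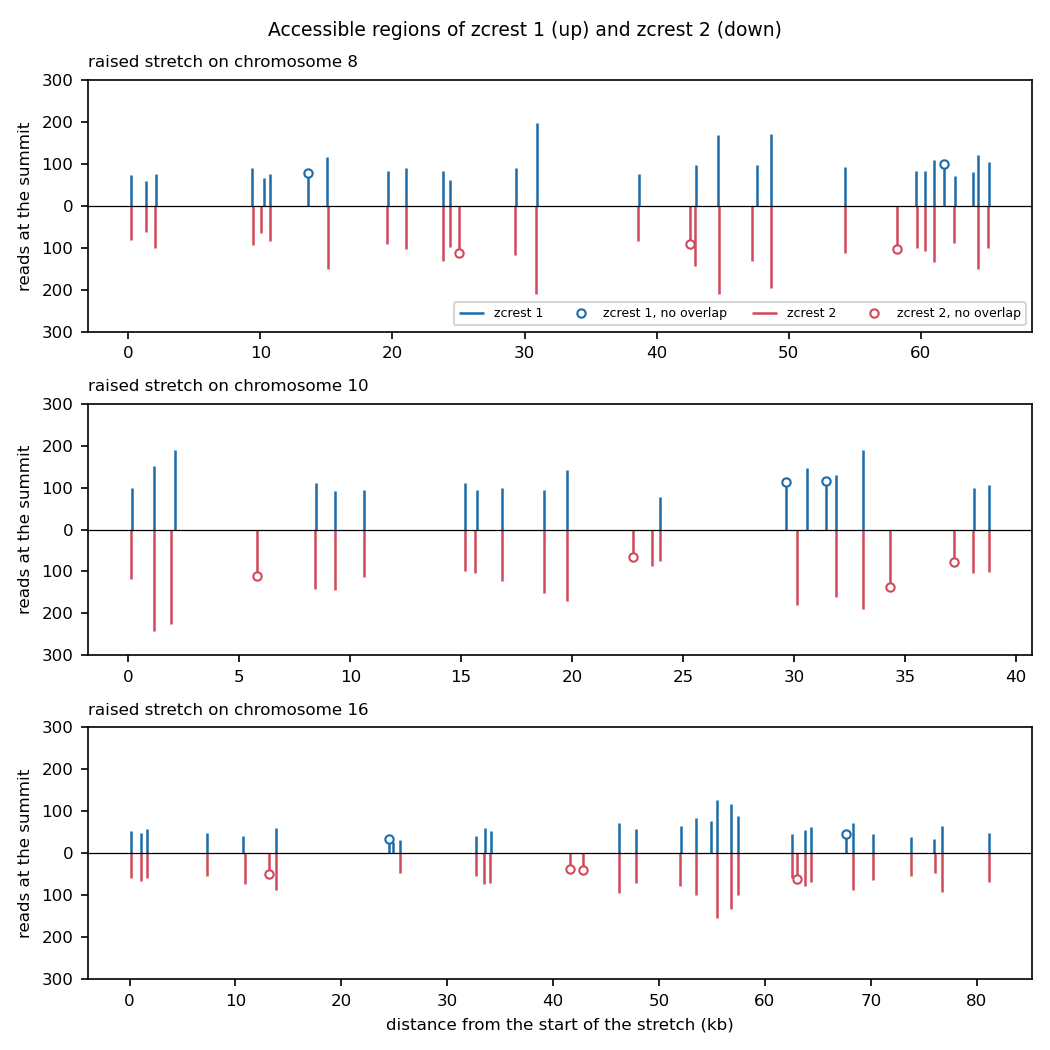
Reads at the summit of each region in the cores of chromosome 8, chromosome 10 (the second) and chromosome 16, against the distance from the start of the core in kb, with zcrest 1 upwards and zcrest 2 downwards. Open circles mark regions with no overlapping region in the other line, and most lines have a partner opposite: 26 of 28, 17 of 19 and 28 of 30 regions of zcrest 1 overlapped one of zcrest 2.

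The heights followed each other between the lines. Across the 124 raised pairs Spearman's rho was 0.92 for the reads at the summit, 0.73 for the width and 0.93 for the background. Across the 683 flank pairs it was 0.57, 0.53 and 0.61. These are correlations across regions, which share a library and, in a core, overlapping 10-kb windows. The raised pairs were kept for a raised background in both lines and pooled over cores of unlike level. The value for the background is therefore a description only. The raised pairs were also taller, with 80 and 99 reads at the median against 26 and 29 in the flank pairs. Within single cores rho for the reads was 0.89 on chromosome 8 (25 pairs), 0.87 on chromosome 16 (26 pairs), 0.73 on chromosome 12 (12 pairs), 0.69 on chromosome 24 (17 pairs) and 0.68 in the second core of chromosome 10 (17 pairs). Tall regions in 1 line were thus mostly tall in the other. In the flanks of these chromosomes rho was 0.60, 0.41, 0.82, 0.70 and 0.60, in the same order. On chromosomes 12 and 24 the core was thus not above its flanks.

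The ratio of summit reads, zcrest 2 over zcrest 1, with the median of all pairs set to 0 on the log2 scale, was 0.30 in the blocks (0.22 to 0.34) and 0.24 in the flanks (0.16 to 0.30). Its spread was lower in raised pairs than in the flanks below 100 reads and not above. Centred on each block, its SD was 0.21 among raised pairs with 20 to 50 reads and 0.82 in the flanks. Reads counted at random would give 0.32 in these raised pairs and 0.39 in these flank pairs. The 0.21 lay below its counting value, and why was not tested. With 50 to 100 reads the SD was 0.29, with 0.25 from counting, and 0.62 in the flanks, with 0.26 from counting. With 100 or more reads it was 0.25 against 0.27 in the flanks, with 0.17 from counting in both. Without the centring, the SD in this tallest class was 0.29 in the raised pairs and 0.21 in the flanks. Requiring both lines to be raised leaves out pairs in which 1 line is low, which narrows this spread. A ratio at least 2-fold from the median of all pairs was found in 7 of the 160 block pairs (4.38%), where the whole lists had 16.4%, and in 138 of the 683 flank pairs (20.2%). Of the 7, 2 were among the 124 raised pairs (1.61%) and 5 among the other 36 (13.9%). These shares are not at like height: the raised pairs had 80 and 99 reads at the median and the flank pairs 26 and 29.

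The ratio of a block and that of its flanks were furthest apart on chromosome 16. On chromosome 16 it was 0.26 in the block (0.18 to 0.34, 28 pairs) and -0.60 in the flanks (-0.76 to -0.45, 62 pairs). The lowest pair of that block, at -0.25, lay above the flank median and near the flanks' upper quartile of -0.24. This pair lay outside the core, as did a pair at -0.15, and the 26 pairs of the core ran from -0.11 to 0.73. On chromosome 7 the ratio was -0.01 in the block, with 7 pairs and an interval of -1.32 to 0.58, and 0.57 in the flanks (0.38 to 0.68). On chromosome 24 it was 0.47 (0.32 to 0.66) and 0.21 (0.08 to 0.38). The blocks on chromosomes 12, 8, 10 and 2 lay within the interval of their flanks, at 0.61, 0.19, 0.01 and 0.51 against 0.66, 0.22, -0.01 and 0.34. The intervals cover the spread over regions of this 1 pair of libraries.

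**Figure D5:**
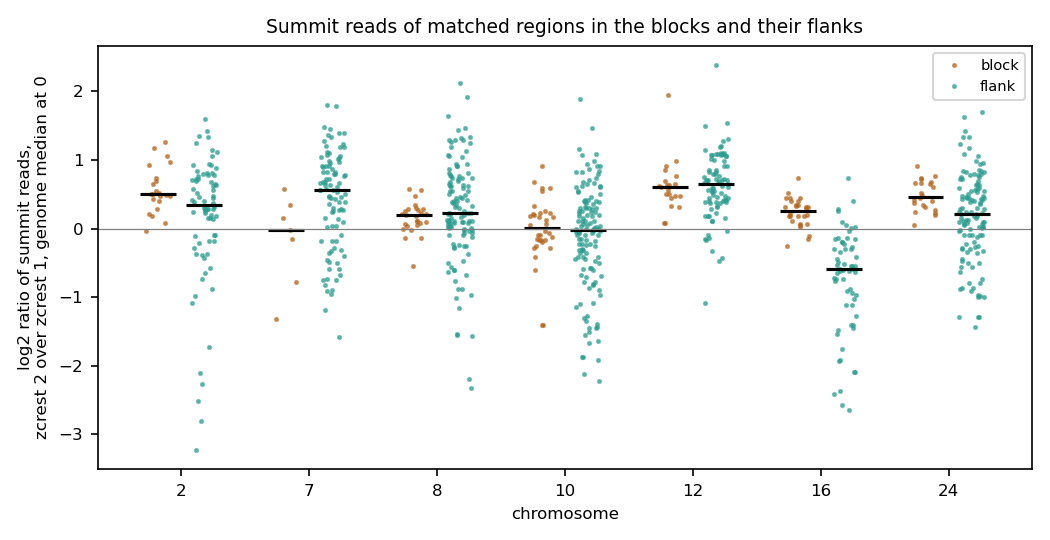
Log2 ratio of summit reads, zcrest 2 over zcrest 1, with the median over all matched pairs at 0, for each matched pair of the blocks (brown) and the flanks (green) by chromosome, and black bars at the medians. On chromosome 16 the block has its median at 0.26 and its flanks at -0.60. On each chromosome the quartiles of the block pairs lie closer together than those of the flank pairs. The block pairs also have more reads at the median in both lines, so the scatter is not compared at like height.

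The chromosome 2 block held a pair of cores. The first, from 18573389 to 18595538, held 9 regions of zcrest 1 and 10 of zcrest 2, of which 8 and 8 were shared. Its reads leaned to zcrest 2, with a log2 ratio of 0.67 and no pair below 0.47. The local level did so too. Its median was 1021 reads per 10 kb over the 9 regions of zcrest 1 and 3039 over the 10 of zcrest 2. At the 8 matched regions alone, the median log2 ratio of the levels, each relative to its own genome-wide level, was 0.67. The widest member of the block in both lines lay there, 1461 bp in zcrest 1 at 18594078 to 18595538 and 1436 bp in zcrest 2 at 18594073 to 18595508, with summits 845 bp apart. In the second core, from 18988227, 8 of 8 regions of zcrest 1 and 8 of 9 of zcrest 2 were shared, and 7 had summits within 50 bp. Its tallest close pair, at 18989095 to 18989572 in zcrest 1 and 18989115 to 18989543 in zcrest 2, had 150 and 194 reads.

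The core of chromosome 7, from 64238246 to 64251275, was short and had the highest median read level of the 9 larger cores in both lines. It held 5 regions in each line, all shared, with a median of 2521 reads per 10 kb in zcrest 1 and 3320 in zcrest 2. Its first region, at 64238246 to 64239368 in zcrest 1 and 64238253 to 64239337 in zcrest 2, had 231 and 243 reads and ranked 113 and 57 in the lists by -log10 q. The last was the widest of all members, 2136 bp in zcrest 1 and 2821 bp in zcrest 2, with 200 and 318 reads. This region ended at 64251265 and 64251275 and started at 64249130 and 64248455.

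Next to that core the lines parted. From 64262363 to 64346441 zcrest 2 had 12 regions in a row with no region of zcrest 1 within 1 kb, 8 of them raised, with 10 to 64 reads at the summit and a background of 0.938 to 4.65 times the median. The next region of zcrest 1 after the core lay 140 kb on, at 1.55 times the median. The strongest of the 12, at 64304026 to 64304661, had 64 reads and a -log10 q of 20.3. This run holds 8 of the 30 raised members of zcrest 2 that had no region of zcrest 1 within 1 kb. Whether zcrest 1 was closed there or below the calling threshold was not tested, since read numbers outside its called regions were not used here.

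The core of chromosome 8, from 36377434 to 36443149, held 28 regions in each line, of which 26 and 25 were shared. The local level was 1619 reads per 10 kb at the median in zcrest 1 and 2266.5 in zcrest 2. Its strongest region was also its widest and the same in both lines. It lay at 36407579 to 36408737 in zcrest 1, with 198 reads and a 6.90-fold enrichment. In zcrest 2 it lay at 36407602 to 36408708, with 210 reads and 5.58-fold, and the summits were 5 bp apart. Between 36377472 and 36379733 a group of 3 regions opened the core in zcrest 1, with 74, 58 and 77 reads, and their counterparts in zcrest 2 had 82, 63 and 101. The level there was lower than further in, 4.45 times the median in zcrest 1 at the first region against a highest value of 22.5 times.

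Chromosome 10 also held a pair of cores. In the first, from 16736021 to 16752682, the local level was higher in zcrest 1. It was 19.8 times the median there and 14.8 times in zcrest 2, with a log2 ratio of -0.46 at the matched regions, from -0.81 to -0.35, all below 0. In the second, from 16773665 to 16812603, the log2 ratio was -0.06 and ran from -0.16 to 0.16. The member of highest -log10 q in zcrest 2 lay in the first core: at 16740291 to 16740860 zcrest 1 had 270 reads and zcrest 2, at 16740267 to 16740874, had 273, and they ranked 30 and 7 in their lists. In the second core 17 of 19 and 18 of 22 regions were shared. Between the cores zcrest 1 had a region at the median background, at 16759797 to 16760135, with 36 reads and an 11.4-fold enrichment, and the nearest region of zcrest 2 was 7.13 kb away.

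On chromosome 12 the level was the lowest of the 9 larger cores, and it was higher in zcrest 2 at each matched region. The main core, from 15434132 to 15480849, had a median background of 4.59 times the median in zcrest 1 and 6.0 times in zcrest 2, and its summits had 38 and 53 reads. It held 13 regions of zcrest 1, of which 12 were shared, and 21 of zcrest 2, of which 12 were. By the median, summits agreed most closely here, at 8 bp over 12 pairs. By the share within 50 bp they did not, with 8 of the 12 pairs against 22 of 26 in the core of chromosome 16. Part of the regions of zcrest 2 without a counterpart formed a run of 4, from 15440835 to 15447173, with 35 to 53 reads. The flanks of this block also had more reads in zcrest 2.

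The core of chromosome 16 reached from 20243779 to 20325310 with 30 regions in each line, all raised. Of them 28 and 26 were shared, and 22 in each line had a summit of the other within 50 bp. Reads at the summit ran from 27 to 128 in zcrest 1 and from 38 to 154 in zcrest 2. The level was 3.46 to 15.9 times the median in zcrest 1 and 4.32 to 16.1 times in zcrest 2. The highest -log10 q was at 20299051 to 20299506 in zcrest 1 and at 20298663 to 20299579 in zcrest 2, with 128 and 154 reads and summits 34 bp apart. In zcrest 2 this was a single region of 917 bp, where zcrest 1 had a separate region of 76 reads just before it.

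The core of chromosome 24, from 12338431 to 12456899, was the longest, at 118 kb, and the least enriched. It held 20 regions of zcrest 1 and 29 of zcrest 2, of which 17 and 17 were shared, and the median enrichment was 2.47-fold and 2.35-fold. A single region stood above the rest. It lay at 12341615 to 12342584 in zcrest 1, with 247 reads and 8.52-fold, and at 12341589 to 12342570 in zcrest 2, with 272 reads and 6.80-fold, ranked 6 and 10 in the lists, and its summits were 1 bp apart. The median summit of the core had 35.5 reads in zcrest 1 and 54 in zcrest 2. Summits of matched regions were a median of 49 bp apart, the most of the 9 larger cores, and 8 of the 29 raised members of zcrest 2 had no region of zcrest 1 within 1 kb.

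Members of a single line were rarer than in the list in zcrest 1 and about as common in zcrest 2. With no region of the other line within 1 kb, there were 30 of 203 in zcrest 1 (14.8%, against 41.6% of the whole list) and 78 of 258 in zcrest 2 (30.2%, against 30.8%). In the flanks the shares were higher than among members in both lines, at 38.1% and 37.6%. The difference between the lines goes with the totals, since zcrest 1 had the longer list and the fewer members. Among raised members there were 5 (3.57%) and 30 (17.2%), against 19.8% and 35.2% of raised flank regions. The 5 of zcrest 1 lay on chromosomes 2, 8, 12 and 24, with 23 to 79 reads at their summits, and the strongest had a -log10 q of 7.68. Of the 30 of zcrest 2, 8 were on chromosome 7, 8 on chromosome 24, 7 on chromosome 12 and the others on chromosomes 2, 8, 10 and 16. At a median spacing of 1670 bp a region within 1 kb need not be the same site, so these counts are low by construction in the cores.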

How the data were processed

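The submitters' processing notes name MACS2 2.1.0 and Zv9. The sources used here give no aligner, duplicate handling or read shift. For each line the authors deposited 1 peak list, whose columns hold the ratio of summit to background (fold enrichment), the -log10 of the p-value and of the q-value, and the summit. All peaks of both lists were used. The lowest deposited -log10 q was 1.31 and 1.32, a q-value of 0.05.

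Summit reads and local background were solved from the deposited fold enrichment and -log10 p, trying every whole pileup up to 800. All peaks were met within 0.001. Background times 50 gives reads per 10 kb, taking reads of 200 bp. Genome-wide levels of 78.6 and 101 reads per 10 kb reflect depth. The total read number was not used here.

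Pairs were matched one to one by overlap of at least 1 bp, the largest overlap first. Intervals are exact binomial (95%), for medians by order statistics, and cover counting error only. Python 3.11.15, numpy 2.4.6, pandas 2.3.3 and scipy 1.17.1 were used, and the scripts were tested on simulated data. Blocks, members and lists were chosen with earlier results of these data known, and the limit of 3 times the median was set after seeing the values. Regions named are, per block and line, the highest -log10 q, the widest, the largest group, the strongest of a single line and the tallest close pair. Others named (the first 3 on chromosome 8, runs, core edges) were chosen after their values were seen.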

Additional observations from a re-analysis of the deposited data

Results flagged for a closer look

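On chromosome 7 the block was sparser than its flanks in zcrest 1, with 0.676 times their density, and slightly denser in zcrest 2, with 1.03 times. The median width of members, block minus flanks, went opposite ways on 3 chromosomes: 51 bp in zcrest 1 and -48 bp in zcrest 2 on chromosome 2, -10 and 50 bp on chromosome 8, and -38.5 and 12 bp on chromosome 12. These are listed because the lines differ in direction. With 1 library per line the differences were not tested.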

How the results depend on the processing

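With a -log10 q of at least 5, the width was 394.5 and 382 bp (zcrest 1, zcrest 2) and the density over the flanks 1.96 in zcrest 2. With at least 10, the density was 1.72 and 1.97, the width 444.5 and 485 bp, the background 9.42 and 10.9 times the median, the shared share 80.3% in zcrest 2 and the log2 ratio 0.20. In the group of most regions per block alone, the density was 8.09 and 7.92, the spacing 1638.5 and 1772.5 bp, the shared share 91.5% and 71.7% and the background 10.6 and 8.72 times. Counting only overlaps of 50% of both regions gave a shared share of 70.4% and 55.4%, counting summits up to 100 bp apart gave 63.5% and 50.0%, and counting any region within 1 kb gave 69.8% in zcrest 2. The other settings were flanks of 1 Mb, the whole genome in place of flanks, matching by summits and pairs of at least 60 reads. Raised limits of 2 and 5 times were added after seeing the data. Among these, only the number of raised members at 5 times left its interval, at 117 in zcrest 1 and 150 in zcrest 2. The intervals were 126 to 153 and 158 to 189. That number was judged by a fold limit instead and counted as unmoved. On this count, of 145 values in all settings, 119 had not moved and 26 had. The cause of these shifts was not tested.

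With each block left out in turn, the density was 1.29 to 1.43 and 1.58 to 1.82, the spacing 3048 to 3907 bp and 3541 to 3950.5 bp, the width 344 to 372 bp and 329 to 346 bp, the shared share 79.2% to 82.1% and 59.4% to 66.1%, the background 5.51 to 7.28 and 6.16 to 7.38 times (highest without chromosome 12), the summit distance 17 to 18 bp and the log2 ratio 0.23 to 0.34. The comparison stretch does not enter the background, so its planned change of flanks was not run. No paired analysis was possible because each line has 1 library.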
